A study of Mus musculus with 16 samples.

Results

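Eif6 and 5 partner genes were followed through the RNA pools of skeletal muscle from Eif6 heterozygous mice. Sbds, Eftud1, Nmd3 and Lsg1 act with Eif6 in the last steps of large ribosomal subunit maturation, and Gnb2l1 encodes a protein of the small subunit. The members were the probes, controls left out, whose gene name on the array was 1 of these 6 names. They make up 6 of 34650 gene names, with 8 probes. All 6 genes kept at least 1 probe in the tests, and 7 of the 8 probes were tested. The array carries the older symbols Gnb2l1 for Rack1 and Eftud1 for Efl1.

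Gastrocnemius, a mixed calf muscle, was taken from 3 Eif6+/- mice (Het) and 3 Eif6+/+ littermates (WT). All were male, C57BL6 and 8 to 16 weeks old, and none was treated. Het mice carry 1 inactivated and 1 normal copy of Eif6 in every tissue, and which part of the gene the inactivated copy lacks is not given in the sources used here. RNA from each muscle was profiled as whole muscle RNA (3 WT and 3 Het arrays) and as polysome RNA, pooled from sucrose gradient fractions of 2 or more ribosomes (3 WT and 3 Het arrays). Monosome RNA, from the fraction of single ribosomes, was profiled for WT mice 1 and 2 and Het mice 1 and 3. Each of the 16 samples was hybridised to a single-colour array, and each mouse supplied its own whole muscle, polysome and monosome RNA. Whole muscle holds several cell types, so that fewer cells of a type and less RNA per cell cannot be told apart in any value below.

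As background, eIF6 binds the maturing large ribosomal subunit on the face that meets the small subunit and keeps the subunits from joining. It enters the particle in the nucleolus, leaves the nucleus with it and is removed in the cytoplasm, where SBDS, the protein lost in Shwachman-Diamond syndrome, and the GTPase EFL1 (the Eftud1 product) together evict it. NMD3 is the adaptor through which the particle is exported from the nucleus, and the GTPase LSG1 releases NMD3 once the particle is in the cytoplasm. RACK1, the Gnb2l1 product, is a protein of the small subunit that holds protein kinase C on the ribosome, and that kinase was described as phosphorylating eIF6. In liver and fat, the dose of eIF6 is known to limit how far translation rises on insulin.

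The Eif6 values rest on a pair of 60-base probes, both on the minus strand of chromosome 2 in the mm9 build. The probe with the higher mean signal stands for the gene and lies at chr2:155645718-155645777, at transcript position 1290 of NM_010579. The other lies at chr2:155648573-155648632, at transcript position 1160, and is shown because it is a measurement of the coding part of Eif6. Capitals mark the whole codons of the only 1 of its 3 forward reading frames that holds no stop codon.
Eif6: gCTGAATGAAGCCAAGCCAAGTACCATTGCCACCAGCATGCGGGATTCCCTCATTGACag
The third probe, designed on a cDNA at chr2:155650902-155650961, was well above background on 0 of 16 arrays (log2 level 1.40 to 2.01) and was not tested. The probe for Gnb2l1 lies at chr11:48619503-48619562 on the plus strand, at transcript position 1013, and crosses the end of the coding region. Its first 45 bases are given, with the stop codon in capitals.
Gnb2l1: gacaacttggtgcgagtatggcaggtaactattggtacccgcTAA
The annotated start of Gnb2l1 is shown because it opens with a C and a run of pyrimidines, as in the 5′ terminal oligopyrimidine motif known from mRNAs of the translation machinery. The window from 10 bases before to 20 bases into the transcript is from RefSeq (GRCm38.p6, chr11:48800350-48800379, plus strand), with capitals for the pyrimidine run from the annotated start onward; the 6 bases before the start are pyrimidines too.
Rack1: gccgctctttCTTTTTCTCCacagggtcgt
A C followed by 4 letters that are each C or T stood exactly at the annotated start in 823 of 32851 mouse promoters (2.51%), on the sense strand, and within 5 bases before to 10 after it in 18.3%. Of the members with a start in that table, Gnb2l1 held it at the start, Eftud1 only within the wider window, and Nmd3 and Lsg1 in neither. Eif6 and Sbds were not in the table. Of the 7 ribosomal protein genes described below that were in it, 1 (Rplp2) held the letters at the start and 6 in neither window.

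The remaining probes lie, in mm9, at chr5:130721712-130721771 on the minus strand for Sbds and at chr7:89926266-89926325 on the plus strand for Eftud1. Those of the export factors lie at chr3:69547459-69547518 on the plus strand for Nmd3 and at chr16:30561471-30561530 on the minus strand for Lsg1. Every value below is the log2 of the array's processed signal after quantile normalisation, which gives the 16 arrays 1 common distribution, so a level is relative to the other RNA on the same array. Levels of different probes were not set against each other. Differences are Het minus WT in log2 units with the standard error (SE) from limma, and a difference was called when its p adjusted over all 20222 tested probes was under 0.05. With 3 arrays against 3 the smallest exact permutation p (2-sided) is 0.1, and with 2 against 2 it is 0.333.

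The arrays themselves differed. On 14 of them the probe nearer the 5′ end of a transcript gave 1.17 to 1.63 log2 units less than a probe nearer the 3′ end (median over 217 probe pairs at least 500 bases apart), while this difference was 0.23 units less on WT polysome 2 and 0.29 units more on WT monosome 2. Both are arrays of WT mouse 2. The mean correlation of WT polysome 2 with its group was 0.903 and that of the WT monosome arrays with each other 0.782, against 0.936 to 0.979 for the other arrays, and the values that moved most without WT polysome 2 and WT monosome 2 are also given without them. The 75th percentile of the processed signal was 42.3 to 150.1 on WT and 13.5 to 33.0 on Het whole muscle arrays, with no overlap, and 24.1 to 66.1 on WT and 63.1 to 106.4 on Het polysome arrays; the part of brightness in the differences was tested only as a covariate. All 11 skeletal muscle fibre markers were detected on all 16 arrays, which bears out the tissue label. Of 10 lists of cell type markers, the summed levels of the genotypes did not overlap for 1 in whole muscle, 3 in polysomes and 6 in monosomes. In whole muscle this was the pair of smooth muscle genes, 1 of them detected on every array (9.19 to 10.2 in WT and 8.98 to 9.18 in Het). The summed log2 level of 5 erythroid genes, 4 of them detected on every array, was 16.3 to 17.5 in WT and 15.3 to 15.7 in Het polysomes, and that of 5 fibroblast and matrix genes, again 4 detected throughout, was 15.8 in each WT and 15.2 to 15.3 in Het polysomes. In monosomes, on 2 arrays a genotype, the erythroid (16.8 to 17.7 in WT and 16.5 to 16.6 in Het), fibroblast (15.7 to 15.9 and 14.8 to 15.6), smooth muscle (10.5 to 11.002 and 9.58 to 9.82), macrophage and leukocyte (7 genes, 3 of them detected throughout, 10.6 to 11.7 and 10.1 on both Het arrays) and adipocyte lists (4 genes, all detected, 12.02 to 12.7 and 11.9 to 11.96) were lower in Het. The skeletal muscle fibre sum was higher in Het in polysomes (19.9 to 19.98 in WT and 20.05 to 20.1 in Het) and in monosomes (19.2 to 19.5 and 19.6). Their part in the results was not tested.

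Eif6 was lower in Het than in WT muscle in all 3 RNA pools. In whole muscle the log2 level was 9.66, 9.15 and 8.97 in WT mice 1, 2 and 3 (9.26 ± 0.36 SD, n = 3), and 8.39, 8.40 and 8.21 in Het mice (8.33 ± 0.11 SD, n = 3). Every Het array lay below every WT array, and the WT mice spread more widely than the Het mice. The difference was −0.93 (SE 0.29, 95% interval −1.55 to −0.30), and Het muscle held 52.7% of the WT signal. It did not pass the adjustment over all probes (limma adjusted p = 0.613, exact permutation p = 0.1, lower in 3 of 3 Het mice).

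In polysomes Eif6 was at 10.25, 10.71 and 9.95 in WT (10.31 ± 0.38 SD, n = 3) and at 9.12, 8.98 and 8.87 in Het mice (8.99 ± 0.12 SD, n = 3). The groups again did not overlap. Het polysomes held 40.2% of the WT signal, a difference of −1.32 (SE 0.29, 95% interval −1.94 to −0.69, limma adjusted p = 0.515, exact permutation p = 0.1). The highest WT value was that of WT polysome 2, and without both arrays of that mouse's ribosome fractions the difference was −1.11 (limma adjusted p = 0.154).

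In monosomes Eif6 was at 9.36 and 10.16 in WT mice 1 and 2 and at 7.82 and 8.06 in Het mice 1 and 3. Both Het arrays lay below both WT arrays, and the Het level was 28.4% of WT, a difference of −1.82 (SE 0.35, 95% interval −2.58 to −1.05). This was the only call among the 6 genes in any comparison of the genotypes (limma adjusted p = 0.0450, exact permutation p = 0.333). The call ended without WT polysome 2 and WT monosome 2, when the difference was −1.41 (limma adjusted p = 0.0882) with a single WT monosome array. It also ended without the monosome array of Het mouse 1 (−1.69, limma adjusted p = 0.330) or Het mouse 3 (−1.94, limma adjusted p = 0.106) and held without that of WT mouse 1 (−2.22). The marker sums of 5 other cell types that were lower in the Het monosomes moved with it, and their part was not tested. Over the alternatives the adjusted p ran from 0.000456 to 0.9999.

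The second Eif6 probe moved with the first (Pearson r = 0.98 over the 16 arrays, which share normalisation and animals) and gave −1.07 in whole muscle, −1.20 in polysomes and −1.86 in monosomes (limma adjusted p = 0.717, 0.586 and 0.0724). All 3 of its comparisons showed no overlap between genotypes. The arrays were processed on 2 slides, each scanned on 1 occasion, and both genotypes of each pool stood on both slides. Within slide 1 the Het minus WT difference of the first probe was −0.66, −1.36 and −1.54 in whole muscle, polysomes and monosomes, and within slide 2 it was −1.02, −1.03 and −2.09. All 6 within-slide values were below 0, and each rests on a single array for at least 1 of the genotypes.

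**Figure D1:**
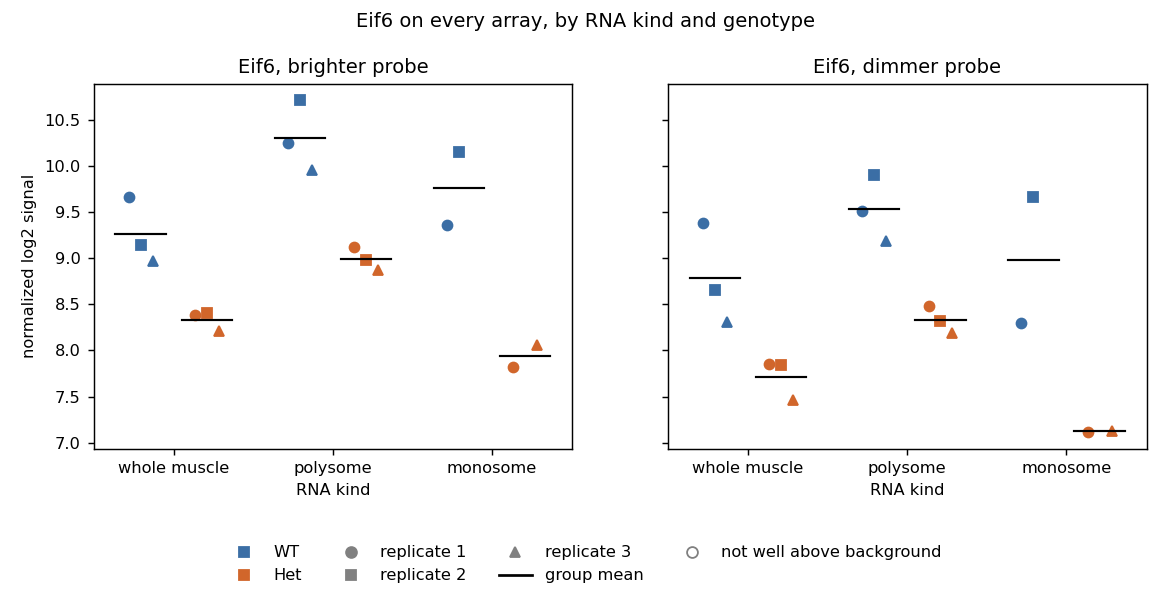
Normalised log2 signal of both Eif6 probes by RNA kind and genotype, 1 point per array with its shape giving the mouse, and the group mean as a line. For the probe that stands for the gene, the 8 Het arrays lie between 7.82 and 9.12 and the WT arrays between 8.97 and 10.71, and within each RNA pool no Het array reaches a WT array.

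Counted over the members, the calls stood as follows against all tested probes. In whole muscle 0 of 6 members and 0% of the 20222 probes were called (limma adjusted p), in polysomes 0 of 6 and 0%, and in monosomes 1 of 6 (Eif6) and 0.499%. At an unadjusted p under 0.05 the probe counts were 1158, 1520 and 6676. By the threshold of the study's methods, a change of more than 1 log2 unit at an unadjusted p under 0.05, 0 of 6 members passed in whole muscle, where 4.58% of probes did. In polysomes 1 of 6 passed (Eif6) against 3.45%, and in monosomes 2 of 6 (Eif6 and Sbds) against 28.6%. Genotypes without overlap were found for 1 of 6 members in whole muscle (Eif6) and 13.6% of probes, for 3 of 6 in polysomes (Eif6, Nmd3 and Lsg1) and 21.7%, and for 2 of 6 in monosomes (Eif6 and Sbds) and 50.4%. The median difference over the 6 members was −0.11 in whole muscle, 0.30 in polysomes and 0.49 in monosomes, beside −0.03, 0.04 and 0.10 over all probes. Without WT polysome 2 and WT monosome 2 the members' medians were −0.0624 in polysomes and −0.0617 in monosomes, beside 0.022 and −0.0147 over all probes.

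The genes whose products remove eIF6 gave no call between genotypes. Sbds in whole muscle was at 6.63, 6.67 and 6.92 in WT and 6.78, 6.54 and 6.37 in Het mice, with overlapping groups (difference −0.18, SE 0.49, limma adjusted p = 1). In polysomes it was at 7.58, 6.08 and 7.40 in WT and 7.68, 7.42 and 7.55 in Het mice. The low WT value is WT polysome 2, and the groups overlapped. The polysome difference of 0.53 (SE 0.49, limma adjusted p = 0.745) was 0.06 without WT polysome 2 and WT monosome 2.

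In monosomes Sbds was at 5.98 and 3.76 in WT and 6.06 and 6.28 in Het mice, and the value of 3.76, from WT monosome 2, was not well above background. The difference of 1.30 (SE 0.60, 95% interval 0.01 to 2.59, limma adjusted p = 0.150) was 0.19 without the 2 arrays, so its size rested on that mouse. Eftud1, the GTPase gene, was dim throughout. Its whole muscle level was 4.89, 5.45 and 5.21 in WT and 5.43, 5.76 and 5.29 in Het mice, a difference of 0.31 (SE 0.59, 95% interval −0.97 to 1.59, limma adjusted p = 1).

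Eftud1 in polysomes was at 5.80, 4.83 and 5.53 in WT and 5.61, 5.72 and 4.93 in Het mice, which differed by 0.03 (SE 0.59, limma adjusted p = 0.988). In monosomes it was at 4.62 and 1.44 in WT and 3.88 and 4.09 in Het mice, and only 1 array of each genotype was well above background (difference 0.96, SE 0.73, limma adjusted p = 0.343). Both release genes were at their lowest on WT monosome 2. The intervals of limma take their spread from all 6 groups (−1.23 to 0.88 for Sbds in whole muscle), whereas the SD within whole muscle was 0.15 in WT and 0.20 in Het for Sbds and 0.28 and 0.24 for Eftud1 (n = 3 each).

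The export genes gave no call between genotypes. For both, every Het polysome array lay above every WT one, which 21.7% of all probes showed in 1 direction or the other, and the whole muscle groups overlapped. Nmd3 in whole muscle was at 5.45, 5.52 and 5.38 in WT and at 5.44, 5.60 and 5.003 in Het mice (difference −0.10, SE 0.74, limma adjusted p = 1). In polysomes it was at 3.46, 3.64 and 3.94 in WT, where only 1 of 3 arrays was well above background, and at 4.93, 4.87 and 4.91 in Het mice, where all 3 were. The Het arrays lay within 0.1 log2 units of each other and above every WT array, and the mean was 1.23 higher (SE 0.74, limma adjusted p = 0.696, exact permutation p = 0.1, higher in 3 of 3 Het mice). The size of this difference depended on how background was treated: it was 0.31 with a normexp background correction and 0.37 in the authors' value table, both still above 0.

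Nmd3 in monosomes was at 1.73 and 6.05 in WT and 1.80 and 2.79 in Het mice, and only WT monosome 2 was well above background. The Het minus WT difference of −1.59 (SE 0.91, limma adjusted p = 0.221) became 0.57 without WT polysome 2 and WT monosome 2, so its direction rested on them. Nmd3 was not well above background on either Het monosome array, so its level there was replaced per array by the lowest signal that was well above background. With that stand-in it was 2.45-fold lower than in Het whole muscle (measured means 2.30 and 5.35) and 1.81-fold lower than in Het polysomes (4.91). The stand-in is not a strict bound. On WT polysome 1 Nmd3 was at 3.46 and not well above background, while the lowest signal that was stood at 3.43.

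Lsg1 was well above background on all 16 arrays. In whole muscle it was at 7.41, 7.32 and 7.61 in WT and 7.66, 7.36 and 6.99 in Het mice, with overlap (difference −0.11, SE 0.23, limma adjusted p = 1). In polysomes it was at 7.10, 7.26 and 7.28 in WT and 7.84, 7.77 and 7.52 in Het mice, and all Het arrays lay above all WT arrays. The polysome difference was 0.50 (SE 0.23, 95% interval −0.01 to 1.003, limma adjusted p = 0.657, exact permutation p = 0.1).

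Lsg1 monosome levels were 6.37 and 6.74 in WT and 6.71 and 6.74 in Het mice, which overlapped (difference 0.17, SE 0.29, limma adjusted p = 0.684). Over the 16 arrays, which share animals and normalisation, Lsg1 correlated with Nmd3 (Pearson r = 0.64, and 0.83 over the 14 arrays without WT polysome 2 and WT monosome 2) and to a like degree with Sbds (0.64 and 0.73) and Eftud1 (0.59 and 0.66). Within slides 1 and 2 the polysome difference was 1.38 and 0.95 for Nmd3 and 0.66 and 0.37 for Lsg1.

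Gnb2l1, the small-subunit scaffold, was bright on every array and differed little by genotype. In whole muscle it was at 13.35, 13.51 and 13.74 in WT and 13.49, 13.52 and 13.32 in Het mice (difference −0.09, SE 0.45, limma adjusted p = 1). In polysomes it was at 12.84, 11.75 and 12.45 in WT and 12.57, 12.59 and 12.19 in Het mice (difference 0.11, SE 0.45, limma adjusted p = 0.940). In both pools the genotypes overlapped, and in polysomes WT polysome 2 was the lowest array.

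In monosomes Gnb2l1 was at 13.998 and 11.75 in WT and 13.65 and 13.71 in Het mice. The low WT array was again that of mouse 2, and the difference of 0.81 (SE 0.55, limma adjusted p = 0.295) was −0.31 without the 2 arrays.

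**Figure D2:**
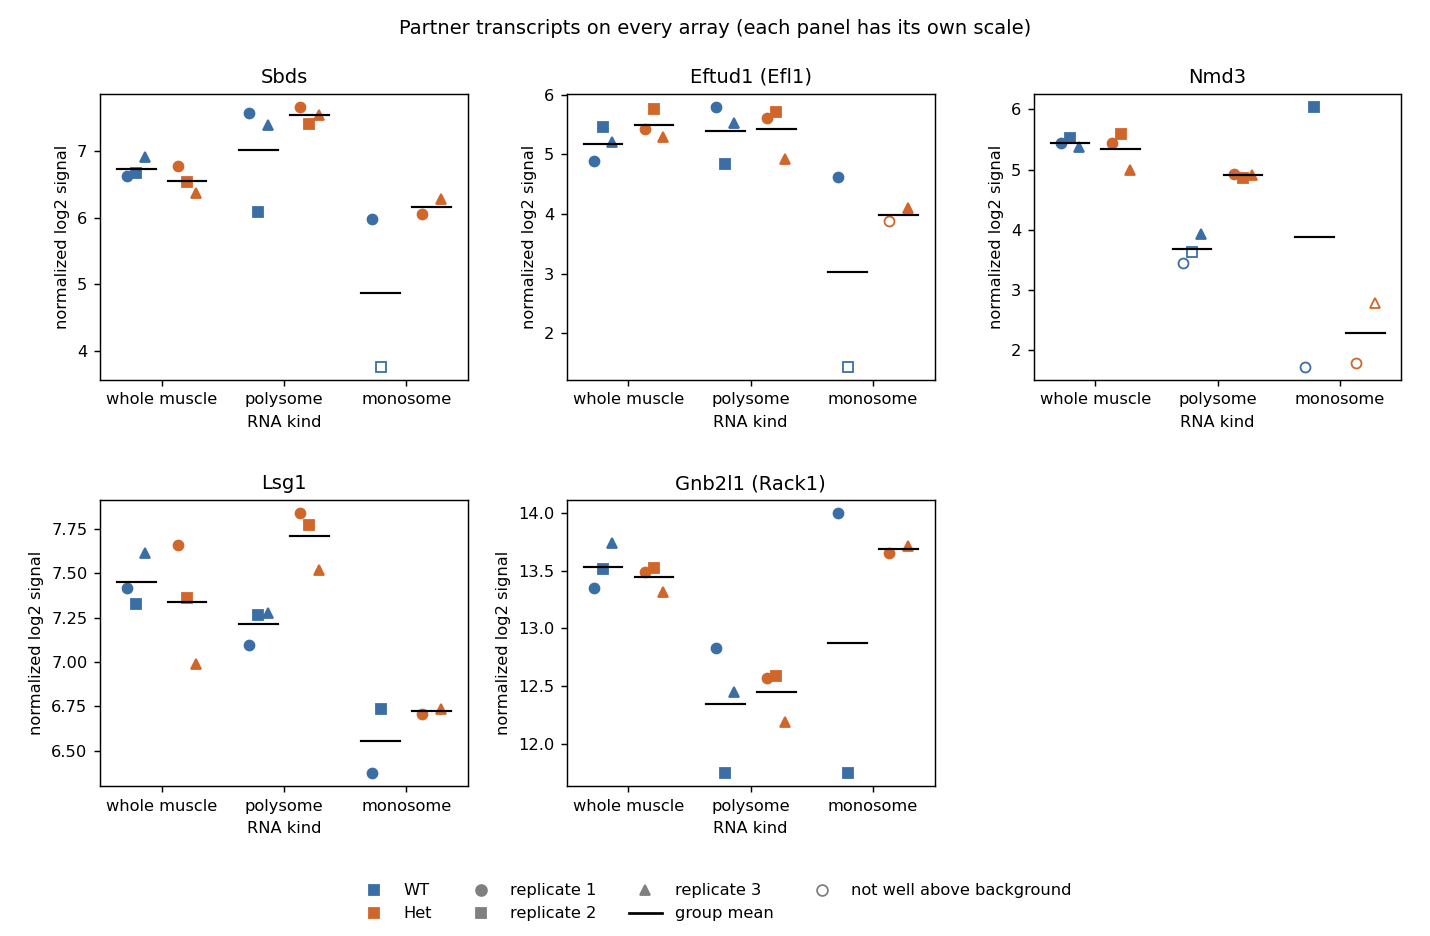
Normalised log2 signal of Sbds, Eftud1, Nmd3, Lsg1 and Gnb2l1 by RNA kind and genotype, 1 point per array with its shape giving the mouse, open points for arrays not well above background, and the group mean as a line. Each panel has its own scale. Het polysome arrays of Nmd3 (4.87 to 4.93) and Lsg1 (7.52 to 7.84) lie above the WT ones, and WT monosome 2 lies far from WT monosome 1 for every gene shown but Lsg1.

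The order of the 6 groups differed between members. Eif6 was highest in WT polysomes (10.31), then WT monosomes (9.76), WT whole muscle (9.26), Het polysomes (8.99), Het whole muscle (8.33) and Het monosomes (7.94). Neighbours overlapped down to Het polysomes, whereas Het polysomes, Het whole muscle and Het monosomes were each clear of the next. Lsg1 and Sbds were both highest in Het polysomes (7.71 and 7.55) and lowest in WT monosomes (6.56 and 4.87), and in both genes neighbours overlapped among the first 4 groups. The fourth group was clear of the Het monosomes in the fifth place, whereas the WT polysomes of Sbds, in the second place, reached down into the Het monosome range through WT polysome 2. Gnb2l1 was highest in Het monosomes (13.68), followed by whole muscle of both genotypes, WT monosomes (12.87) and both polysome groups (12.45 in Het and 12.34 in WT), and every neighbour overlapped. Nmd3 was highest in whole muscle of both genotypes (5.45 in WT and 5.35 in Het), which were clear of Het polysomes (4.91). The first 4 groups of Eftud1 lay within 5.18 to 5.49 and were clear of both monosome groups (3.99 in Het and 3.03 in WT).

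**Figure D3:**
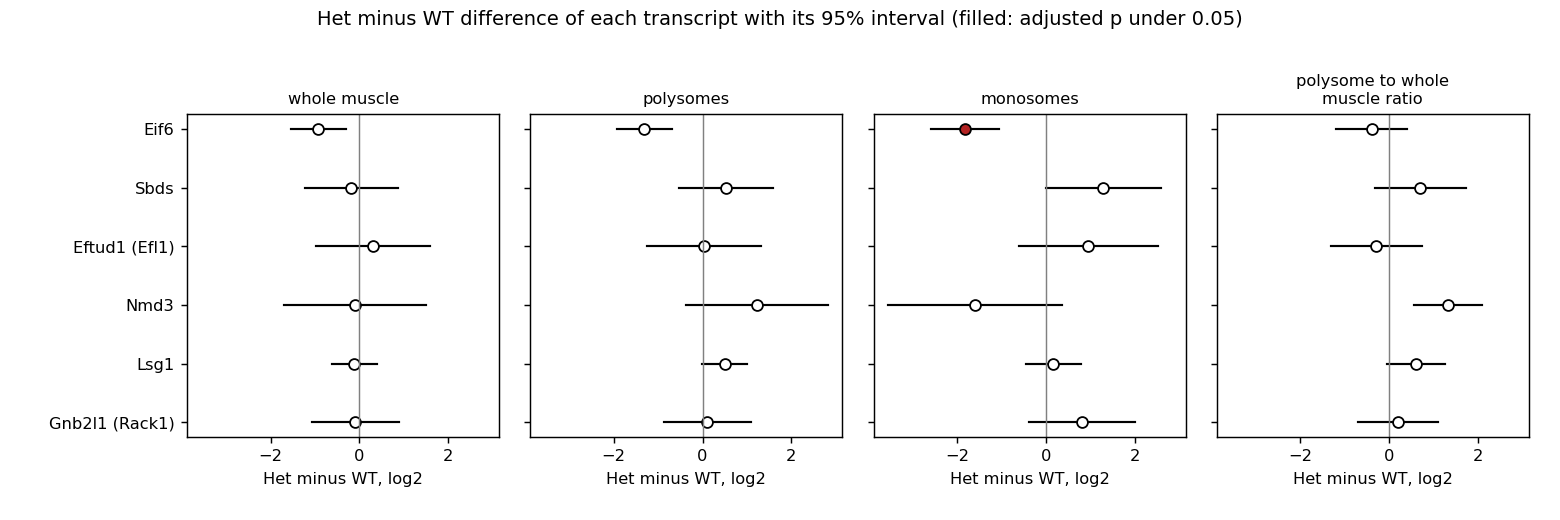
Het minus WT difference (log2 units) of each member in whole muscle, polysomes, monosomes and the polysome to whole muscle ratio, with the 95% interval from limma as a line and a filled point for an adjusted p under 0.05. Eif6 lies at −0.93, −1.32 and −1.82 in the RNA pools with intervals below 0, and Nmd3 at 1.33 for the ratio with an interval from 0.57 to 2.09.

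Since each mouse gave both pools, the polysome minus whole muscle difference within a mouse measures how far a gene's RNA was represented among ribosome-rich fractions relative to the tissue. For Eif6 this was 0.59, 1.57 and 0.98 in WT mice 1, 2 and 3 and 0.73, 0.58 and 0.66 in Het mice 1, 2 and 3. All 6 mice were above 0, and Het mice 1 and 3 lay inside the WT range and Het mouse 2 just below it. The ratio was 1.05 in WT (SE 0.24, limma adjusted p = 0.0265) and 0.66 in Het (SE 0.24, limma adjusted p = 0.128). The Het minus WT difference of the ratio was −0.39 (SE 0.34, 95% interval −1.19 to 0.41, limma adjusted p = 0.571, exact permutation p = 0.3), and it was −0.13 without WT polysome 2 and WT monosome 2. The Eif6 deficit in polysomes was thus not shown to differ from that in whole muscle. The WT call for Eif6 was lost without WT mouse 2 (0.79, limma adjusted p = 0.0531) or WT mouse 3 (1.08, limma adjusted p = 0.0931), and also, through the shared spread, without Het mouse 1 or Het mouse 3 (limma adjusted p = 0.0583 and 0.0546).

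For Nmd3 the same ratio was −1.99, −1.89 and −1.43 in WT and −0.51, −0.73 and −0.09 in Het mice. All 6 mice were below 0 and the genotypes did not overlap, with each Het mouse closer to 0. The ratio was −1.77 in WT (SE 0.23, limma adjusted p = 0.00609) and −0.44 in Het (SE 0.23, limma adjusted p = 0.249), and the difference between genotypes was 1.33 (SE 0.32, 95% interval 0.57 to 2.09, unadjusted limma p = 0.00429, limma adjusted p = 0.121, exact permutation p = 0.1). The difference passed the threshold of the study's methods, but not the adjustment over all probes. As 2 of the 3 WT polysome values were not well above background, the size of the WT ratio is uncertain, and the difference was 0.35 with normexp and 0.31 in the authors' value table, where it was smaller than that of Lsg1 (0.42 and 0.53).

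For Lsg1 the ratio was −0.32, −0.06 and −0.34 in WT and 0.18, 0.41 and 0.53 in Het mice, so every WT mouse was below 0 and every Het mouse above. The difference was 0.61 (SE 0.28, 95% interval −0.05 to 1.27, limma adjusted p = 0.332, exact permutation p = 0.1). Within slides 1 and 2 it was 1.096 and 0.08, whereas the ratio difference of Nmd3 was 1.46 and 0.997. For Gnb2l1 the ratio was −0.51, −1.77 and −1.30 in WT and −0.92, −0.93 and −1.12 in Het mice, below 0 in all 6. The mean ratio of Gnb2l1 was −1.19 in WT (SE 0.27, limma adjusted p = 0.0258) and −0.99 in Het (SE 0.27, limma adjusted p = 0.0688), a difference of 0.20 (SE 0.38, limma adjusted p = 0.7998). The WT call for Gnb2l1 was lost without WT mouse 2 (−0.90, limma adjusted p = 0.0606), WT mouse 3 (−1.14, limma adjusted p = 0.104), Het mouse 1 or Het mouse 3 (limma adjusted p = 0.0555 and 0.0515), whereas that of Nmd3 held without any 1 of the 6 mice. Over the other alternatives the Nmd3 ratio in WT ran from −1.83 to −0.50, nearest to 0 with normexp, and the call held in 9 of 12, lost within either slide and in the unpaired fit.

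Sbds gave ratios of 0.94, −0.59 and 0.48 in WT and 0.90, 0.88 and 1.18 in Het mice. The value below 0 was that of WT mouse 2, and the difference of 0.71 (SE 0.43, limma adjusted p = 0.442) was 0.27 without its arrays. Eftud1 ran from −0.62 to 0.92 in WT and from −0.36 to 0.18 in Het mice, with no separation (difference −0.28, SE 0.44, limma adjusted p = 0.755).

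Of the members, 3 of 6 were called between polysome and whole muscle RNA in WT (Eif6 higher, Nmd3 and Gnb2l1 lower), where 20.4% of probes were called, and 0 of 6 in Het, where 7.36% were. At an unadjusted p under 0.05 each genotype gave 3 members, beside 37.5% of probes in WT and 28.8% in Het. Without WT polysome 2 and WT monosome 2 the counts were 1 (Nmd3) in WT and 2 (Sbds and Gnb2l1) in Het, in fits that called 16.8% and 15.4% of probes. A call in 1 genotype alone does not show a difference between genotypes, and for the difference itself 0 of 6 members and 0% of probes were called (3431 probes at an unadjusted p under 0.05). By the threshold of the study's methods 1 of 6 members passed for the difference (Nmd3) against 13.9% of probes, and 2 of 6 had no overlap (Nmd3 and Lsg1) against 25.3%. That threshold passed 2814 probes with the limma p and 1724 with the methods' t-test. The median over the members was 0.41, and 0.16 over all probes, and without WT polysome 2 and WT monosome 2 these were 0.0945 and 0.0792.

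**Figure D4:**
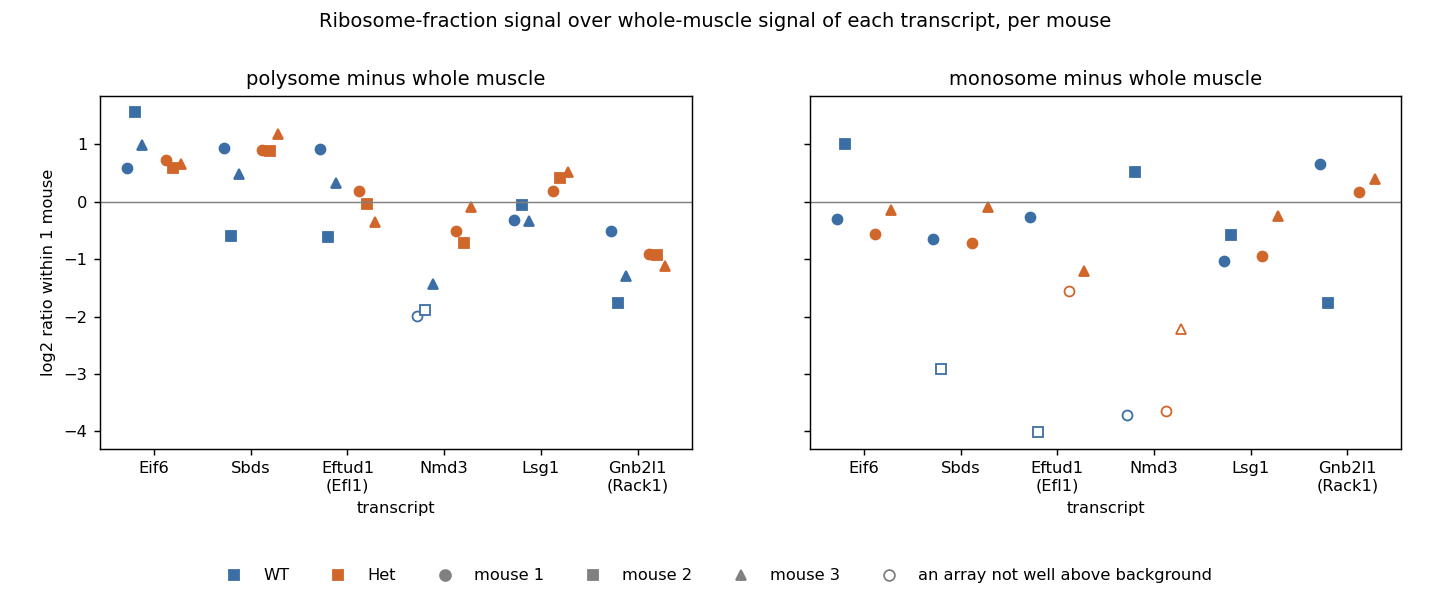
Log2 ratio within each mouse for the 6 members, polysome over whole muscle on the left and monosome over whole muscle on the right, 1 point per mouse with open points where an array was not well above background. On the left Nmd3 lies between −1.99 and −1.43 in WT and between −0.73 and −0.09 in Het mice, and Lsg1 changes sign between the genotypes.

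Between polysomes and monosomes of the same mouse, over the 2 WT and 2 Het mice with both, no member passed. Sbds, Eftud1, Eif6 and Lsg1 had values above 0 in all 4 mice, Gnb2l1 a mean below 0, and Nmd3 took both signs. Sbds stood above 0 by 1.60 and 2.32 in WT and 1.62 and 1.28 in Het (mean 1.70, SE 0.24, limma adjusted p = 0.0552). The Eftud1 values were 1.19 and 3.40 in WT and 1.73 and 0.84 in Het (mean 1.79, SE 0.44, limma adjusted p = 0.0655). The Sbds and Eftud1 values of WT mouse 2 and the Eftud1 value of Het mouse 1 were taken against monosome arrays not well above background, so these differences and both means are uncertain in size. Those of Eif6 were 0.90 and 0.56 in WT and 1.30 and 0.81 in Het (mean 0.89, SE 0.23, limma adjusted p = 0.0682), and those of Lsg1 ran from 0.53 to 1.13 (mean 0.79, SE 0.21, limma adjusted p = 0.0731).

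Gnb2l1 was at −1.16, −1.08 and −1.52 in 3 of these mice and at 0.00 in WT mouse 2 (mean −0.94, SE 0.29, limma adjusted p = 0.0841). Nmd3 ran from −2.41 in WT mouse 2 to 3.13 in Het mouse 1, and was not well above background on 3 of the 4 monosome arrays. None of the 6 was called and 0% of probes were (8317 probes at an unadjusted p under 0.05). Without WT polysome 2 and WT monosome 2 all 6 members passed, Gnb2l1 lower and the other 5 higher in polysomes, in a fit that called 33.6% of probes. Of these, Nmd3 was not well above background on any of the 3 monosome arrays left, nor Eftud1 on Het monosome 1, so the passes of Nmd3 and Eftud1 rest on values of uncertain size. Scaling the arrays to their 75th percentile in place of quantile normalisation called 4 of 6 and 27.1% of probes. The monosome minus whole muscle difference called 0 of 6 members and 0% of probes (4634 at an unadjusted p under 0.05), as did the difference between genotypes in that ratio (2540 at an unadjusted p under 0.05), which for Eif6 was −0.71 (SE 0.71, limma adjusted p = 0.639), and −0.053 without WT polysome 2 and WT monosome 2.

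Other genes of the pathway were taken as 4 lists. By the threshold of the study's methods, the ratio difference between genotypes passed for 5 of 18 late and cytoplasmic factors (all higher), 3 of 45 nuclear factors (2 higher and 1 lower), 0 of 9 ribosomal proteins and 0 of 10 kinases and partners, where 13.9% of probes passed. In whole muscle 2 of 18, 2 of 45, 0 of 9 and 0 of 10 passed, all lower, against 4.58%, and in polysomes 1 of 45 alone against 3.45%. None of the 5 late factors that passed for the ratio was well above background on all arrays. The same held for the 2 that passed in whole muscle. In monosomes 2 of 18, 5 of 45, 1 of 9 and 4 of 10 passed against 28.6%. The list closest to the members holds late and cytoplasmic factors of the large subunit, with 18 of 20 names tested. In whole muscle 13 of 18 were below 0 (median −0.09), in polysomes 12 of 18 above 0 (median 0.31), and for the ratio of polysomes to whole muscle 15 of 18 above 0 (median 0.40), beside −0.03, 0.04 and 0.16 over all probes. The monosome median was 0.29, and without WT polysome 2 and WT monosome 2 the medians were 0.15 in polysomes, 0.0223 in monosomes and 0.24 for the ratio. None was called in any comparison of genotypes. Among those well above background on all arrays the extremes for the ratio were Aamp (0.87, limma adjusted p = 0.288) and Pa2g4, also known as Ebp1 (−0.24, limma adjusted p = 0.739), and in whole muscle Zfp622, a factor that rides on the exported particle (0.09), and Aamp again (−0.57). In polysomes they were Gnl2, a nucleolar GTPase (0.30), and Pa2g4 (−0.33), and in monosomes Gnl2 (0.54) and Aamp (−0.89). Without the 2 arrays the extremes were Aamp (0.94) and Zfp622 (−0.11) for the ratio, Aamp (0.35) and Nxt1 (−0.22) in polysomes, and Dnajc21 (0.50) and Ran (−0.79) in monosomes.

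In WT polysomes against WT whole muscle, Gltscr2 (−2.20), Rsl24d1, the placeholder for ribosomal protein L24 (−2.08), Abce1, a ribosome recycling factor (−1.66), and Gnl3, known as nucleostemin (−1.18), were called lower and Pa2g4 (1.18) was called higher (limma adjusted p = 0.0336, 0.0419, 0.0174, 0.0301 and 0.0223). These 5 of 18 are 27.8%, beside 20.4% of all probes, and the 4 lower genes were dim, not well above background on at least 1 array. Without the 2 arrays Gnl3 and Pa2g4 were no longer called and Zfp593 was, which made 22.2% of the list beside 16.8% of all probes. In Het mice Aamp (1.37, limma adjusted p = 0.0307) and Gnl3l (2.10, limma adjusted p = 0.0496, not well above background on every array) were called higher and 0 lower, which is 11.1% of the list beside 7.36% of all probes. Without the 2 arrays Pa2g4 and Zfp593 were called there as well, 22.2% of the list beside 15.4% of all probes.

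The nuclear and nucleolar assembly factors (45 of 53 names tested) had 0 calls between genotypes, with medians of 0.00, 0.12, −0.09 and 0.18 in whole muscle, polysomes, monosomes and the ratio. Their extremes in whole muscle were Fbl, the fibrillarin methyltransferase (0.29), and Noc3l (−0.29), and in polysomes Rsl1d1 (0.50) and Ppan (−0.51). In monosomes they were Nsa2 (0.70) and Ppan (−1.43, limma adjusted p = 0.0836), and for the ratio Nop2 (0.43) and Fbl (−0.74). In WT mice 6 were called higher in polysomes than in whole muscle (Ddx55 by 1.88, Fbl by 1.39, Ebna1bp2 by 1.05, and Nsa2, Senp3 and Ppan by under 1) and 2 lower (Pes1 −1.49 and Rpf1 −1.15), and in Het mice Nol9 (1.96) and Rrp1b (1.42) were called higher. These shares, 17.8% of the list in WT and 4.44% in Het, stand beside 20.4% and 7.36% of all probes. Ddx55, Pes1, Rpf1, Nol9 and Rrp1b were dim and not well above background on every array. Without WT polysome 2 and WT monosome 2, Senp3, Ppan and Pes1 were no longer called in WT, and the monosome median was −0.15 with the extremes Pelp1 (0.27) and Fbl (−1.22). Wdr18 and Wdr74 were then called in WT and Ebna1bp2 and Nifk in Het. The calls were then 15.6% of the list in WT and 8.89% in Het, beside 16.8% and 15.4% of all probes. The list medians were 0.0152 in polysomes, with the extremes Noc2l (0.39) and Ppan (−0.50), and 0.11 for the ratio, with Noc2l (0.38) and Fbl (−0.82).

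The ribosomal proteins at the sites that these factors occupy were all 9 tested and well above background on all arrays, and none was called between genotypes. In polysomes Rpl5 (0.55) and Rpl3 (−1.02, limma adjusted p = 0.680) were the extremes, in whole muscle Rplp1 (0.19) and Rpl3 (−0.43), and for the ratio Rpl5 (0.67) and Rplp1 (−0.63). Without WT polysome 2 and WT monosome 2 the extremes in polysomes were Rpl5 (0.24) and Rpl3 (−1.32), with 3 of 9 above 0 in place of 5, and for the ratio Rpl5 (0.47) and Rplp2 (−0.59). All 9 were above 0 in monosomes, from Rpl3 (0.26) to Rpl5 (1.60), with a median of 0.67 beside 0.10 over all probes. This rested on WT mouse 2: without WT polysome 2 and WT monosome 2 only 2 of 9 were above 0 in monosomes, from Rpl3 (−1.08) to Rpl5 (0.29), with a median of −0.18. Like Gnb2l1, 8 of 9 in WT and 9 of 9 in Het mice lay lower in polysomes than in whole muscle RNA, and the calls were Rplp0 (−2.003), Rpl5 (−1.92) and Rpl10 (−0.99) in WT and Rplp0 (−2.09), Rpl5 (−1.24) and Rplp1 (−1.21) in Het mice. The 3 calls are 33.3% of the list in each genotype, beside 20.4% and 7.36% of all probes. The list medians were −0.37 in WT and −0.67 in Het, beside 0.0465 and 0.12 over all probes, of which 47.6% and 42.2% were below 0. Without the 2 arrays 7 of 9 were lower in WT, and the same 3 were called there, 33.3% of the list beside 16.8% of all probes. In Het Rpl10 was then called as well, 44.4% of the list beside 15.4% of all probes.

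Of the kinases, calcineurin subunits and the integrin known to act on or bind eIF6, 10 of 11 names were tested and 0 were called between genotypes. Their medians were 0.14, 0.52, 0.88 and 0.34 in whole muscle, polysomes, monosomes and the ratio. Prkca, the protein kinase C alpha gene, was the highest of those detected on all arrays in whole muscle (0.29), polysomes (0.60) and monosomes (1.34, limma adjusted p = 0.189), and Csnk1a1, which encodes a casein kinase, the lowest in whole muscle (−0.12), polysomes (−0.65) and the ratio (−0.53). The lowest in monosomes was Prkcd (−1.45), which was the highest for the ratio (0.38). Between polysomes and whole muscle of WT mice Csnk1a1 (1.26) and Itgb4 (0.95) were called higher, and 0 genes of this list in Het mice, which is 20% and 0% of the list beside 20.4% and 7.36% of all probes. Without WT polysome 2 and WT monosome 2 neither was called in WT and Csnk1a1 was called higher in Het. These are 0% and 10% of the list beside 16.8% and 15.4% of all probes. The list medians became 0.20 in polysomes, −0.0734 in monosomes and −0.0693 for the ratio. The extremes were then Prkca (0.18) and Csnk1a1 (−0.20) in polysomes, Prkca (−0.0291) and Prkcd (−1.20) in monosomes, and Prkcd (0.24) and Prkca (−0.15) for the ratio.

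**Figure D5:**
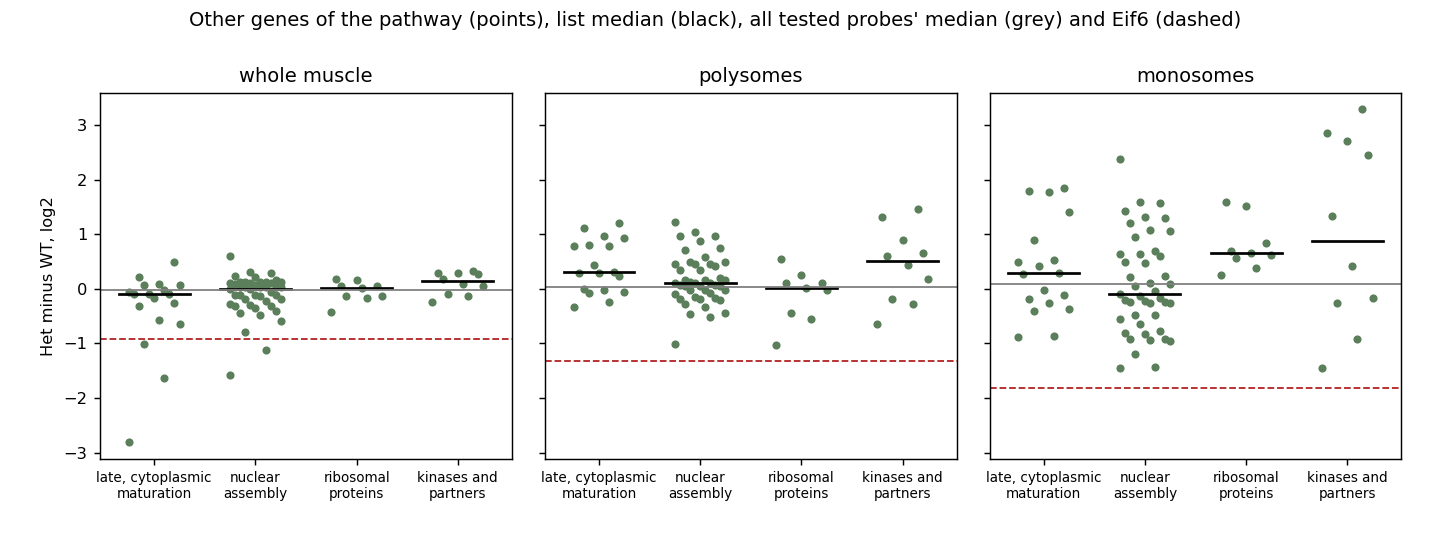
Het minus WT difference (log2 units) of every tested gene of the 4 pathway lists in whole muscle, polysomes and monosomes, 1 point per gene, with the list median as a black line, the median of all tested probes as a grey line and Eif6 as a dashed line. The late and cytoplasmic factors, 8 of 18 of them well above background on all arrays, have medians of −0.09, 0.31 and 0.29. All 9 ribosomal proteins lie above 0 in monosomes, where 2 of 9 do without WT polysome 2 and WT monosome 2.

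The genes whose levels ran most like Eif6 over the 16 arrays, among 9133 probes well above background on all of them, were Galk1, the galactokinase (Pearson r = 0.96), Naprt1, an enzyme of NAD synthesis (0.92), Uap1l1 (0.92) and the histone genes Hist1h2ak (0.92) and Hist1h2ah (0.92). Over the 14 arrays without WT polysome 2 and WT monosome 2 the values were 0.94, 0.88, 0.92, 0.87 and 0.87. Hist1h2ak and Hist1h2ah are near-identical copies and their probes may share targets. Among the members, Sbds and Eftud1 followed each other (r = 0.89, and 0.66 without the 2 arrays), and Eif6 ran against Gnb2l1 (r = −0.65, and −0.41 without them). Without them the pair farthest from 0 was Sbds with Gnb2l1 (−0.88, against 0.11 over all 16 arrays), and Eif6 gave 0.55 with Sbds and 0.49 with Eftud1 (−0.11 with each over all 16).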

How the data were processed

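RNA from gastrocnemius of 3 WT and 3 Het mice was measured on 16 single-colour Agilent arrays of 62976 spots. The authors deposited scanner files from Feature Extraction 11.0.1.1, whose processed intensity per spot is background-subtracted, and quantile-normalised log2 values of their own, used here as an alternative. With R 4.3.3 with the data.table package, version 1.17.8, the log2 processed intensity was averaged per probe (flagged spots left out) and quantile-normalised over the 16 arrays, as in the study's methods. Tested probes had a value on all arrays and stood clear of background throughout 1 group or more (20222 probes of 15880 gene names; 63 were left out for a missing value). At 23.5% to 45.9% of spots well above background per array, dim probes and the number of arrays limit the precision.

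limma 3.58.1 was fitted over all groups for differences between genotypes, and to differences within a mouse for ratios, since the design text says that each muscle gave all its RNA pools; deviations of a mouse's arrays correlated at 0.05 to 0.48 between polysomes and whole muscle. Benjamini-Hochberg adjustment covered all tested probes. The brightest probe stood for a gene. The members and the gene lists were chosen with earlier results of these data known. Of each list the text names genes past the adjusted threshold and the highest and lowest genes detected on all arrays, and the 5 genes with the highest r with Eif6. Alternatives changed the scaling, background correction, source of the values, filter, slide, brightness, pairing, samples, test and probe, and left out arrays; the replicate block over all 16 arrays and the list values without 2 arrays were added after seeing the data. Figures were drawn with matplotlib 3.10.9. Nothing here shows whether same-genotype mice shared a litter.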

Additional observations from a re-analysis of the deposited data

Results flagged for a closer look

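The polysome to whole muscle ratio of Lsg1, the GTPase gene of the export step, took opposite signs in the genotypes. All 3 WT mice were below 0 (−0.32, −0.06 and −0.34 log2 units) and all 3 Het mice above 0 (0.18, 0.41 and 0.53). The Het minus WT difference of the ratio was 0.61, and the test of this difference did not pass (limma adjusted p = 0.332, exact permutation p = 0.1, the smallest that 3 mice against 3 allow). Within slides 1 and 2 the difference was 1.096 and 0.08. The ratios of the genotypes did not overlap for 25.3% of all tested probes, and how many changed sign was not counted. A ratio of 0 is only a relative level, as the medians over all probes were 0.05 in WT and 0.12 in Het.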

How the results depend on the processing

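Of 738 recomputed values of single members, 596 kept their direction and side of the threshold, 64 passed it, 38 fell short of it and 40 changed sign; the cause was not tested. In whole muscle, polysomes and polysome loading (the Het minus WT difference of the polysome to whole muscle ratio) 0 members were called under every alternative. Eif6 was below 0 in all of these and in monosomes under every alternative. Dim probes (Nmd3, Eftud1 and Sbds in monosomes) and the small number of arrays limit the precision.

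The monosome call for Eif6 was lost with 75th percentile scaling (−1.64), slide as a term (−1.82), slide 1 alone (−1.54), brightness as a covariate (−1.79), the monosome arrays alone (−1.82), the methods' t-test (−1.82), the mean of its probes (−1.84) and without WT polysome 2 and WT monosome 2 (−1.41). Members called in monosomes numbered 0 under all of these except the mean of the probes, for which they were not counted, and 5 within slide 2, where 40.7% of probes were called. For polysomes against whole muscle in WT the 3 calls (20.4% of probes) became 1 with no filter (3.38%), slide as a term (12.1%), brightness (4.1%), the unpaired fit (7.66%) or without the 2 arrays (16.8%). They were lost within either slide, where whole muscle or polysomes had a single WT array. In Het the 0 calls (7.36% of probes) became 1 with 75th percentile scaling (9.46%) and 2 with normexp (14.4%), the authors' value table (14.1%), probes detected on all arrays (30.4%) or without the 2 arrays (15.4%). For polysomes against monosomes the 0 calls became 4 with 75th percentile scaling or unpaired (27.1% and 26% of probes), 5 with normexp or the authors' table (24.9% and 26.2%) and 3 over probes detected on all arrays (51.5%). Members were also called within slide 2, without the 2 arrays and with slide as a term, where a single array or a single WT mouse stood for a group. Slide as a term gave the same fit here as leaving out the 2 arrays. Only WT mouse 2 had its polysome and monosome arrays on different slides. Within slide 2 the genotype difference of the monosome to whole muscle ratio gave 2 calls (20.4% of probes), and monosomes against whole muscle gave 3 (47.6%), or 4 unpaired over both slides (24.9%).

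Sign changes were all of uncalled values. In whole muscle they were Gnb2l1 with 75th percentile scaling (0.11), within slide 2 (0.0604) and with brightness (0.57), Nmd3 in the authors' table (0.06) and with slide as a term (0.18), Sbds within slide 2 (0.12) and with brightness (0.70), and Lsg1 within slide 2 (0.29). In polysomes they were Gnb2l1 and Eftud1 within slide 2 (−0.0552 and −0.21), with brightness (−0.20 and −0.35) and without the 2 arrays (−0.19 and −0.25). In monosomes they were Nmd3, Gnb2l1 and Eftud1 within slide 1 (0.0707, −0.34 and −0.74) and without the 2 arrays (0.57, −0.31 and −0.63). In polysome loading they were Eftud1 in the authors' table (0.0169), Sbds (−0.0334) and Gnb2l1 (−0.12) within slide 2, and Gnb2l1 without the 2 arrays (−0.0854). The Sbds ratio of polysomes to whole muscle in WT was −0.0856 within slide 1, and polysome minus monosome Nmd3 was −0.0035 within slide 2.

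Leaving out 1 replicate at a time gave 0 to 5 members called in monosomes (5 without WT mouse 1, where 53.6% of probes were called), 1 to 3 for polysomes against whole muscle in WT (3.72% to 16.8% of probes) and 0 to 2 in Het (0% to 15.4%), 0 to 6 for polysomes against monosomes (0% to 49.8%), 0 to 2 for monosomes against whole muscle (0% to 36.9%) and 0 to 3 for the genotype difference of that ratio (0% to 28.6%), which for Eif6 ran from −1.37 to −0.053. In whole muscle it moved Nmd3 from −0.23 to 0.0698, Lsg1 from −0.27 to 0.0599 and Gnb2l1 from −0.19 to 0.0111, and in polysomes Gnb2l1 from −0.19 to 0.35 and Eftud1 from −0.25 to 0.27. In monosomes the ranges were −2.22 to −1.41 for Eif6, −3.75 to 0.57 for Nmd3, −0.0152 to 0.35 for Lsg1, −0.31 to 1.94 for Gnb2l1 and −0.63 to 2.55 for Eftud1. In polysome loading they were −0.0854 to 0.54 for Gnb2l1 and −0.70 to 0.0725 for Eftud1, and the WT ratio of Sbds ran from −0.0538 to 0.71. A group left with 1 array was assumed to vary like the others.

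With the replicate number as a block, Eif6 was −0.93 in whole muscle (limma adjusted p = 0.446), −1.32 in polysomes (limma adjusted p = 0.580) and −0.39 in polysome loading (limma adjusted p = 0.633). For polysomes against whole muscle in WT the calls went from 3 members to 1 (Nmd3), and those over all probes from 20.4% to 6.99%. Across genotypes the same number need not mean a pair: deviations of same-numbered arrays correlated at −0.23 to 0.22 in whole muscle, −0.33 to 0.45 in polysomes and 0.26 in monosomes. Within the monosome arrays alone, or for the monosome ratio, the block left no residual degrees of freedom. As a term in the fit of all 16 arrays, an alternative chosen after seeing the data, it gave Eif6 −0.93 in whole muscle (limma adjusted p = 0.479), −1.32 in polysomes (limma adjusted p = 0.450) and −1.65 in monosomes (limma adjusted p = 0.0877), with 0 members called in each.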
